A study of Drosophila melanogaster with 24 samples.

Results

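The cytoplasmic ribosomal protein genes were 85 of the 12126 features listed in the table of all 24 libraries. They were chosen by symbol and level, as names that begin with RpL or RpS and a digit, together with sta, RpLP0, RpLP1 and RpLP2, whose normalized counts averaged 10 or more over all libraries. All 85 genes so named passed that minimum, and the choice used no comparison between groups. By symbol, 35 members belong to the small subunit, 47 to the large subunit and 3 are the P proteins of its stalk. The 47 include RpL7-like and RpL24-like, whose yeast counterparts are assembly factors. Each of the 85 carried a Gene Ontology name for the cytosolic ribosome or 1 of its subunits in the deposited annotation, and 0 carried one for the mitochondrial ribosome. Of 27 symbols looked for in duplicated families, 18 were listed and 9 were not. RpL37-1, among the 9, is the name of the listed RpL37a in a newer annotation, and genes under the other unlisted symbols were not analysed here.

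A ribosome joins a small subunit, which reads the mRNA, to a large subunit, which forms the peptide bonds. Each of its proteins is needed in nearly the same number of copies, and animal cells spend much of their transcription and translation on making them. Supply of amino acids sets this effort through the TOR kinase and through Gcn2, a kinase that binds uncharged tRNAs and phosphorylates the initiation factor eIF2alpha. Most ribosomal protein mRNAs of animals begin with a pyrimidine tract through which TOR controls their translation, a step that the level of mRNA does not show.

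RNA was sequenced from heads and thoraces of once-mated female Drosophila melanogaster. The groups were Gcn2 mutants on the -R, -M, -All and Yaa diets, and wDah flies on the same 4 diets, with 3 libraries for each of the 8 groups. Each library came from 25 flies kept for 3 days on the diet. Yaa is a chemically defined medium with every amino acid, and -R, -M and -All lack arginine, methionine or all amino acids. In every cell of the mutants, the whole coding region of Gcn2 has been exchanged for a white marker, and the line had been backcrossed into wDah, an outbred stock with a white mutation, so the mutants differ from wDah in the marker as well as in Gcn2. These were whole body parts, so fewer cells of a type and less RNA per cell cannot be told apart in any value given here.

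Normalized counts are estimated reads per gene divided by a size factor for the library. They summed to 20873591 to 27513490 per library and were highest on -All. The normalized count of Gcn2 was 106 to 185 in mutant libraries and 597 to 701 in wDah libraries, so the labels and the libraries matched. In 6 libraries the 6 listed genes of a 16-gene ovary list summed to more than 1000, namely Gcn2 -R replicate 1, Gcn2 -M replicate 2, Gcn2 Yaa replicate 2, wDah -M replicate 1 and wDah -All replicates 1 and 3. None of 10 testis and male accessory gland markers was listed. Values below are from tests with limma on log2(normalized count + 1) over all features of a comparison with a mean of at least 10, and a gene was called at a Benjamini-Hochberg adjusted p under 0.05. Shares of all genes called are given for these tests only. Counts with libraries left out or rescaled, or with another alternative, have no such share beside them and describe the members alone.

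Ribosomal protein mRNAs were among the most abundant of all. Levels of different genes can be set side by side only per length, as FPKM, and on that scale the median member had a mean of 1077 FPKM over the 24 libraries, against 8.12 FPKM for the median of all features. The members held 24 of the 100 highest features and 69 of the 200 highest, and 79 of the 85 had a mean of 500 FPKM or more. RpL41, which encodes the smallest ribosomal protein, was highest with 3709 ± 889 FPKM (SD, n = 24), followed by RpLP1, an acidic stalk protein, with 2489 ± 464 FPKM. The third was RpL39, a short protein near the exit of the nascent peptide, with a mean of 2409.8 FPKM, though its exons overlap those of RpL12 on the other strand. RpL41 ranged from 2564 to 5364 FPKM and RpLP1 from 1852 to 3718 FPKM over the libraries, so their ranges overlap. The lowest members were RpS5b at 13.5 FPKM, RpS15Ab at 35.0 FPKM and RpL7-like at 38.3 FPKM. RpS5b and RpS15Ab are second copies of genes that are expressed far more highly, and RpL7-like resembles RpL7 by symbol.

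The share of all normalized counts that the members took together differed between groups. It was 5.34% ± 0.79 in Gcn2 -R, 4.03% ± 0.16 in Gcn2 -M, 4.07% ± 0.060 in Gcn2 -All and 5.51% ± 0.43 in Gcn2 Yaa libraries (SD, n = 3 each). The share was 4.14% ± 0.18 in wDah -R, 5.22% ± 0.17 in wDah -M, 4.18% ± 0.11 in wDah -All and 5.79% ± 0.13 in wDah Yaa libraries. The lowest shares were thus those of -All in both genotypes, of -M in Gcn2 mutants and of -R in wDah flies, and Gcn2 -R was the group with the widest spread. The totals themselves differ between diets, so a share also moves with the genes outside this set.

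**Figure D1:**
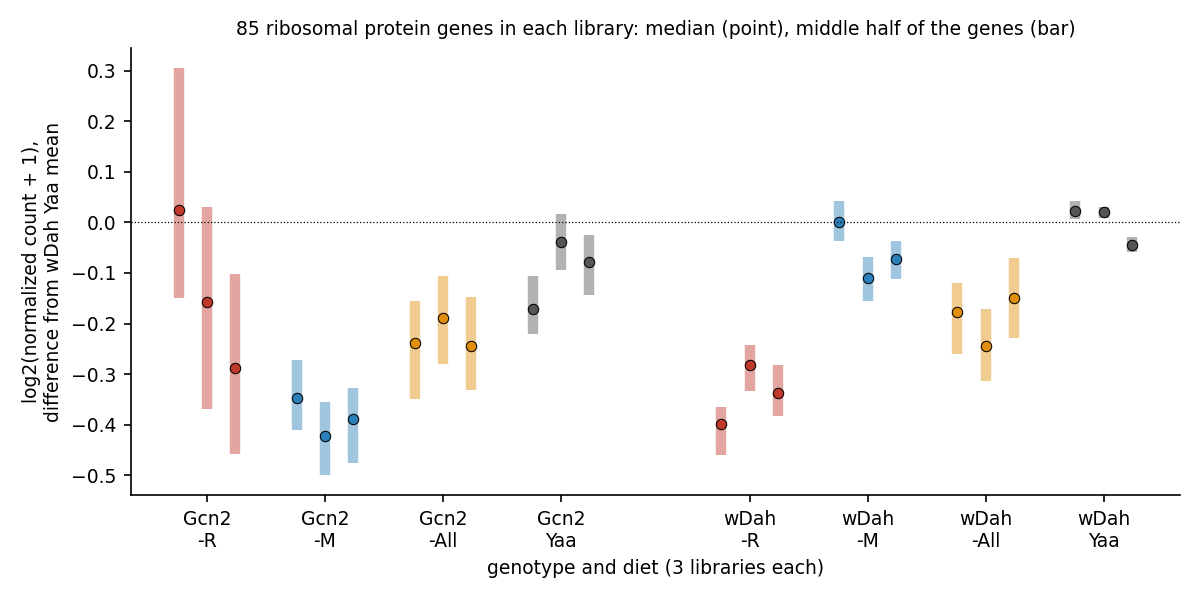
Difference of log2(normalized count + 1) from the mean of wDah on Yaa, for the 85 ribosomal protein genes in each of the 24 libraries, 3 for each genotype and diet. Points are medians over the genes and bars run over the genes from the lower to the upper quartile. The 3 Gcn2 -R libraries have medians from -0.29 to 0.025 and the longest bars. As groups, Gcn2 -M, from -0.42 to -0.35, and wDah -R, from -0.40 to -0.28, lie lowest, though the lowest Gcn2 -R library falls within the range of wDah -R.

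Withdrawal of arginine from wDah flies lowered nearly the whole set by a like amount. Of the 85 members, 82 fell and 0 rose, where 8.98% of all 10904 genes tested were called lower and 13.8% higher. The median member had a log2 fold change of -0.34, a change of -20.9%, against -0.014 for the median of all genes. The SD over the members was 0.089, against 0.45 over all genes. Most of all genes have far lower levels than the members, and genes of a like level were not compared. For 84 members all 3 -R libraries lay below all 3 Yaa libraries, as did 20.1% of all genes. The 3 members not called were RpL34a, RpL7-like and RpS5b, of which RpL34a and RpS5b each belong to a pair of copies. Both subunits took part, since 34 of 35 small-subunit, 45 of 47 large-subunit and all 3 stalk genes fell, with medians of -0.34, -0.34 and -0.45. The 82 calls were all kept when single libraries were left out, except that 79 of them were kept without wDah Yaa replicate 1 and 79 without wDah Yaa replicate 2.

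In the small subunit, RpS12 had the lowest fold change on -R. Its mRNA, for a protein known in flies for its part in the competition between cells with different numbers of ribosomal protein genes, had normalized counts of 5779, 6538 and 6051 on -R and 9447, 9171 and 8656 on Yaa (log2 fold change -0.57 ± 0.052 (SE), adjusted p = 1.48e-04). RpS6, the ribosomal target of S6 kinase, had 14084, 15144 and 15147 on -R and 18166, 18327 and 17457 on Yaa (log2 fold change -0.28 ± 0.040 (SE), adjusted p = 0.00155). The diets did not overlap for either gene. The gene sta, whose product sits at the mRNA exit of the small subunit, had 17403, 19273 and 19055 on -R and 26953, 26757 and 24956 on Yaa (log2 fold change -0.50 ± 0.050 (SE), adjusted p = 2.59e-04). RpS3, at the mRNA entrance, had 13133, 14228 and 13614 on -R and 17623, 17391 and 16469 on Yaa (log2 fold change -0.33 ± 0.042 (SE), adjusted p = 8.44e-04). For both of these genes every -R library lay below every Yaa library.

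In the large subunit, RpL41 had 8427, 9652 and 8834 normalized counts on -R and 13993, 13126 and 12434 on Yaa, with no overlap and a fall of 32% (log2 fold change -0.56 ± 0.059 (SE), adjusted p = 3.49e-04). RpL32, a usual reference gene for quantitative PCR in flies, had 8189, 8972 and 8161 on -R and 11079, 11359 and 10817 on Yaa (log2 fold change -0.39 ± 0.044 (SE), adjusted p = 4.14e-04). RpL32 thus fell by 23.9% on this diet, where the median of all genes was near 0. RpL3, which lines the peptidyl transferase centre, had 24669, 27390.3 and 25708 on -R and 32537, 32831 and 30904 on Yaa (log2 fold change -0.31 ± 0.047 (SE), adjusted p = 0.00219). RpL5 and RpL11, which enter the ribosome together with the 5S RNA, fell by 0.21 and 0.35 on the log2 scale (adjusted p = 0.00415 and 5.89e-04). Among the members called, RpL15 fell least, with 21682, 20908 and 21445 on -R and 24002, 24413 and 24149 on Yaa (log2 fold change -0.18 ± 0.032 (SE), adjusted p = 0.00441).

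The stalk P proteins, which recruit elongation factors to the large subunit, fell in the same way. RpLP0, the base of the stalk, had 18633, 18745 and 18639.8 normalized counts on -R and 23227, 23336 and 23288 on Yaa (log2 fold change -0.32 ± 0.029 (SE), adjusted p = 1.47e-04). RpLP1 had 18562, 19907 and 19437 on -R and 26236, 26808 and 25985 on Yaa (log2 fold change -0.45 ± 0.037 (SE), adjusted p = 8.28e-05), and RpLP2, its dimer partner, had 11348, 11875 and 12215 on -R and 16976, 17577 and 16641 on Yaa (log2 fold change -0.53 ± 0.039 (SE), adjusted p = 4.3e-05). The diets overlapped in none of the 3. RpL12, which binds at the foot of the stalk, had a log2 fold change of -0.41 (adjusted p = 6.95e-04). RpL40 and RpS27A, which are made as fusions with ubiquitin, fell by 0.32 and 0.34 on the log2 scale (adjusted p = 0.00182 and 3.55e-04). Over the same flies, 7 listed genes of an 8-gene list of digestive enzymes of the gut summed to 197176 to 208936 on -R and 105175 to 114745 on Yaa, and 6 fat body and yolk genes to 1296562 to 1442337 on -R and 389977 to 463816 on Yaa, and their part in these values was not tested.

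**Figure D2:**
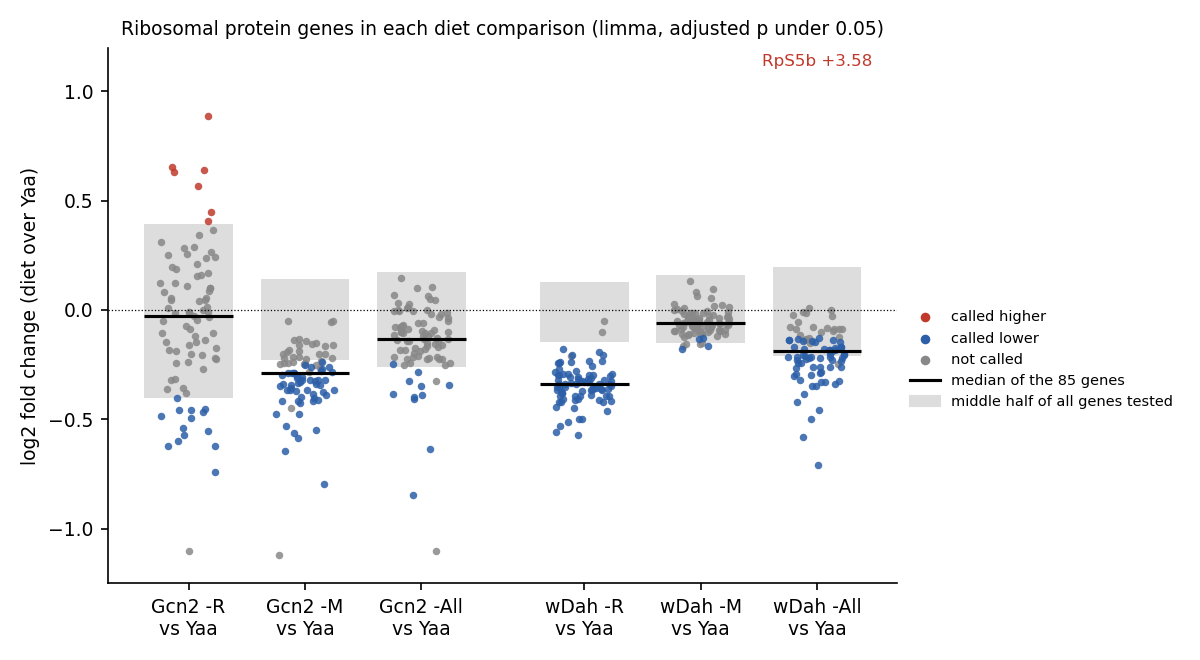
Log2 fold change of each ribosomal protein gene, diet over Yaa, in the 6 diet comparisons, with coloured points for genes called by limma and a black line at the median of the 85 genes. Grey boxes run from the lower to the upper quartile of all genes tested, and RpS5b on wDah -All (3.58) is written at the top because it lies off the axis. The wDah -R points form a narrow band around -0.34, and the Gcn2 -R points spread on both sides of 0.

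With the deposited scaling, withdrawal of methionine from wDah flies lowered few members. Of the 85, 4 members (RpL22, RpL37A, RpL38 and RpS14a) fell and 0 rose, a share below the 10.4% of all genes called lower. With libraries rescaled to the same total, however, 55 members were called lower and the median member was at -0.15, so the number of calls on this diet depends on the scaling. The rescaling also lowered the median of all genes, as given below, and the share of all genes called with it is not given here. As deposited, the median member was at -0.061 on the log2 scale, a change of -4.14%, against 0.0059 for all genes. Although 73 of the 85 members were below 0, the libraries separated for 21 of them, against 19.9% of all genes. RpL37A had the lowest fold change, with 9402, 8564 and 9332 normalized counts on -M and 10666, 10349 and 9906 on Yaa (log2 fold change -0.18 ± 0.048 (SE), adjusted p = 0.0274), and its exons overlap an antisense RNA gene. RpS6 had 18566, 17228 and 17597 on -M and 18166, 18327 and 17457 on Yaa, so the diets overlapped. The median 95% interval of a member, which is not adjusted for the number of tests, reached 0.106 on the log2 scale to either side. Changes somewhat larger than that could also be missed with these 6 libraries, as RpS20 at -0.16 was not called (limma, adjusted p = 0.0565). The 4 calls rest on single libraries, with counts of 0 without wDah -M replicate 2 or wDah Yaa replicate 1 or wDah Yaa replicate 2, 2 without wDah -M replicate 3 and 14 without wDah -M replicate 1. The digestive enzymes summed to 175163 to 202189 on wDah -M and 105175 to 114745 on wDah Yaa, and the fat body and yolk genes to 595535 to 655939.9 on wDah -M and 389977 to 463816 on wDah Yaa, and their part was not tested.

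Withdrawal of all amino acids from wDah flies lowered most of the set. 61 of the 85 members fell and 1, RpS5b, rose, against 15.7% lower and 19.7% higher among all genes. The median member had a log2 fold change of -0.19, a change of -12.1%, and for 69 members the libraries did not overlap, as for 24.6% of all genes. RpL24-like stood below the others, with 1538, 1556 and 1625 normalized counts on -All and 2595, 2678 and 2457 on Yaa (log2 fold change -0.71 ± 0.047 (SE), adjusted p = 3.36e-05). Its counterpart in yeast is an assembly factor of the large subunit and not a part of the finished ribosome. RpL41 had 9282, 8317 and 8798 on -All and 13993, 13126 and 12434 on Yaa (log2 fold change -0.58 ± 0.059 (SE), adjusted p = 2.74e-04). At the other end, RpL19 had 17938, 17847 and 18345 on -All and 17987, 18276 and 17538 on Yaa (log2 fold change 0.0089, 95% interval -0.076 to 0.094), and RpL4, which reaches into the exit tunnel, had 22614, 21533 and 23910.0 on -All and 23212, 22889 and 22009.9 on Yaa (95% interval -0.12 to 0.11). The intervals of these genes include 0, but with libraries rescaled to the same total RpL19 was at -0.28 and RpL4 at -0.29, and 84 members were called lower. That rescaling also lowered the median of all genes, as given below, and the share of all genes it called is not given here. As deposited, the count was 40 without wDah Yaa replicate 1 and 41 without wDah Yaa replicate 2. The digestive enzymes summed to 252025 to 274668 on wDah -All and 105175 to 114745 on wDah Yaa, and the fat body and yolk genes to 3007038 to 3405486 and 389977 to 463816 on the same diets, and their part was not tested.

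Normalized counts on -All depend on the scaling more than those of the other diets. When libraries were rescaled to the same total, over all genes the median change against Yaa went, on the log2 scale, to -0.37 in Gcn2 mutants and -0.30 in wDah flies on -All, to -0.10 in mutants and -0.16 in wDah flies on -R, and to -0.21 in mutants and -0.087 in wDah flies on -M. The members moved along with it, to medians of -0.45 in Gcn2 -All and -0.47 in wDah -All, -0.10 in Gcn2 -R and -0.49 in wDah -R, and -0.45 in Gcn2 -M and -0.15 in wDah -M. No member that had been called changed direction. On both scalings the median member was below the median of all genes in 5 of the 6 comparisons and level with it on Gcn2 -R.

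In Gcn2 mutants the members moved in both directions when arginine was withdrawn. On -R, 14 members fell and 7 rose, against 4.60% lower and 17.3% higher among all genes. With libraries rescaled to the same total, 16 fell and 4 rose, and the share of all genes called then is not given. As deposited, the median member was at -0.027 on the log2 scale, close to the -0.028 of all genes. The SD over the members was 0.35, against 0.80 over all genes, so the members were less spread than genes at large. The libraries separated downwards for 21 members, where 21.6% of all genes did so, and upwards for 17, where 26.6% did so. These shares are near those of all genes, and members of both subunits moved in each direction. The members called higher were RpL10, RpL23, RpL7-like, RpLP1, RpS27, RpS3A and RpS4. The members called lower were RpL17, RpL22, RpL23A, RpL30, RpL34b, RpL37A, RpL40, RpS12, RpS14a, RpS14b, RpS15Ab, RpS20, RpS27A and RpS30.

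RpS27 (chr3R:25245955-25247514, minus strand in BDGP6), a zinc-binding protein of the small subunit, gained most. It had 15673, 14230.3 and 14359 normalized counts in Gcn2 mutants on -R and 7826, 8399 and 7674 on Yaa, a rise of 85.2% (log2 fold change 0.89 ± 0.089 (SE), adjusted p = 0.00107). In wDah flies it had 6574, 7153 and 6518 on -R and 8661, 8768 and 8418 on Yaa (log2 fold change -0.35 ± 0.042 (SE), adjusted p = 5.79e-04). The same diet thus gave a rise in one genotype and a fall in the other, with no overlap in either. RpS3A, the only member on chromosome 4, had 47757, 51596 and 46622 in mutants on -R and 29192, 33752 and 30029 on Yaa (log2 fold change 0.65 ± 0.10 (SE), adjusted p = 0.00642). RpS4 had 30721, 24958 and 23393 on -R and 18340.2, 19858 and 19330.2 on Yaa (log2 fold change 0.45 ± 0.13 (SE), adjusted p = 0.0479), again without overlap.

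Of the large subunit, RpL10, which docks late near the peptidyl transferase centre, had 33163, 34349.8 and 30554 normalized counts in mutants on -R and 21002, 23385 and 21839.5 on Yaa (log2 fold change 0.57 ± 0.10 (SE), adjusted p = 0.00859). RpL23 had 24297, 20956 and 19337 on -R and 12723, 14039 and 14564 on Yaa (log2 fold change 0.64 ± 0.12 (SE), adjusted p = 0.0118), but its exons overlap inaD on the other strand and the counting is not stated to use strand, so reads of the pair cannot be told apart. RpLP1 of the stalk had 36001, 33241 and 30809.6 on -R and 25127, 24372 and 25836 on Yaa (log2 fold change 0.41 ± 0.10 (SE), adjusted p = 0.0293). None of the 3 overlapped between the diets. The other stalk genes pointed the same way without passing the test, with log2 fold changes of 0.29 for RpLP0 (adjusted p = 0.163) and 0.31 for RpLP2 (adjusted p = 0.111).

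On the lower side, RpL22 (chrX:762560-765130, minus strand), a large-subunit protein that in mammals also binds other RNAs, had 8633, 7927 and 7355 normalized counts in mutants on -R and 13229, 13220.1 and 13484 on Yaa, a fall of 40.2% (log2 fold change -0.74 ± 0.093 (SE), adjusted p = 0.00259). Its exons overlap a long non-coding RNA gene on the same strand. RpS14a had 7564, 7313 and 6919 on -R and 10918, 11289.7 and 11331 on Yaa, and RpS14b had 3105, 2858 and 2534 on -R and 4261, 4363 and 4395 on Yaa. These are neighbouring copies on chromosome X that encode the same protein, so the split of reads between them is uncertain while the fall is shared by both. RpL40, a ubiquitin fusion, had 9842, 9416 and 8399 on -R and 13604, 14175 and 14060.3 on Yaa (log2 fold change -0.60 ± 0.094 (SE), adjusted p = 0.00645), and RpS27A, the other ubiquitin fusion, had 15676, 14779 and 13431 on -R and 19387, 21281 and 19873 on Yaa (log2 fold change -0.47 ± 0.10 (SE), adjusted p = 0.019). RpS30, which in mammals is joined to a ubiquitin-like protein, had 11084, 9434 and 8961 on -R and 12487, 13043 and 13326 on Yaa (log2 fold change -0.40 ± 0.11 (SE), adjusted p = 0.0417). The ubiquitin fusions thus lay on the lower side in all -R libraries of the mutants.

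Most of the members in between did not pass the test. RpL32 had 10796, 9303 and 8434 normalized counts in mutants on -R and 9921, 10515 and 10369 on Yaa (log2 fold change -0.12, 95% interval -0.39 to 0.16). RpS6 had 16475, 13151 and 12272 on -R and 16715, 18035 and 17237 on Yaa (log2 fold change -0.32, adjusted p = 0.123). For RpL32 the first -R library lay above all Yaa libraries and the other 2 below them, and for RpS6 all 3 lay below. The intervals were wide because the members varied within the group, with a median coefficient of variation of 12.3% over the 3 Gcn2 -R libraries and 2.90% to 5.34% in the other 7 groups. Gcn2 -R replicate 1 had the highest median of the 3, and it is 1 of the 6 libraries with high ovary markers (9599 in sum, against 44.2 and 45.5 in the other 2). It also stood apart in neuron markers, which summed to 9107, against 22007 and 23493 in replicates 2 and 3. Among regulators, Trf2 had 500 against 1411 and 1396 and Xrp1 21870 against 42499 and 39959, while Tor had 1409 against 1079.5 and 1095. Gcn2 Yaa replicate 2, with an ovary sum of 10181, had a neuron sum of 25917 and 2148 for Trf2. The source of these differences was not tested.

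The order of the members was nevertheless shared by the mutant libraries on -R. With each -R library set against the Yaa library of the same number, so that each library was used once, the 3 sets of differences correlated at Pearson r = 0.87, 0.91 and 0.94 over 84 members without RpS5b, as a description across genes that are not independent. Without Gcn2 Yaa replicate 2 and Gcn2 -R replicate 1, which hold the most ovary RNA, 48 members were called, 34 lower and 14 higher, and all 21 of the calls above were among them. The share of all genes called without those libraries is not given here. When single libraries were left out instead, the count was 6 without Gcn2 Yaa replicate 1 and 8 without Gcn2 -R replicate 2 or Gcn2 -R replicate 3 or Gcn2 Yaa replicate 3, and without Gcn2 -R replicate 1 alone it was 30, with 24 lower and 6 higher. The digestive enzymes summed to 46848 to 68001 in Gcn2 -R and 101523 to 130721 in Gcn2 Yaa libraries, and the fat body and yolk genes to 589355 to 911137 in Gcn2 -R and 516650.1 to 519951 in Gcn2 Yaa libraries. Markers of neurons (9107 to 23493 in Gcn2 -R and 25917 to 33842 in Gcn2 Yaa) and of photoreceptors (241272 to 268914 in Gcn2 -R and 276807 to 395499.9 in Gcn2 Yaa) were lower on -R without overlap, and the part of all these cell types in the members' values was not tested.

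**Figure D3:**
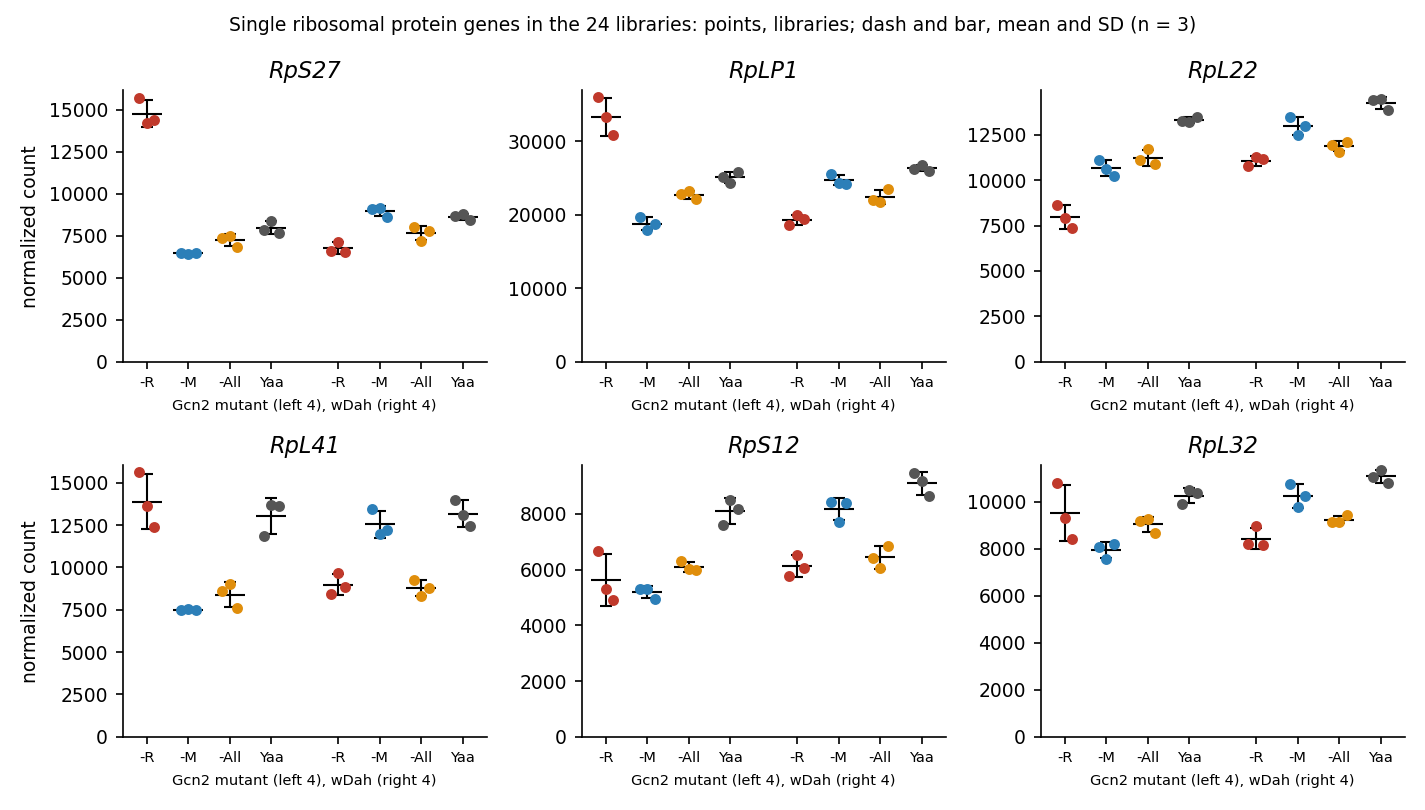
Normalized counts of 6 ribosomal protein genes in all 24 libraries, for Gcn2 mutants on -R, -M, -All and Yaa (left 4 positions in each panel) and wDah flies on the same diets (right 4). Points are libraries, and dashes with bars are means with SDs (n = 3). RpS27 and RpLP1 are highest in Gcn2 -R, RpL22 is lowest there, and RpL41 is lowest in Gcn2 -M at 7463 to 7570.3.

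Withdrawal of methionine lowered the set in Gcn2 mutants. 51 members fell and 0 rose, against 2.49% lower among all genes. All 85 lay below 0, the median log2 fold change was -0.29, a change of -18.2%, and for 79 members the libraries did not overlap, as for 15.7% of all genes. Same-numbered libraries deviated together in this comparison, and with the replicate block 32 members were called. RpL41 had 7463, 7570.3 and 7492 normalized counts on -M and 11829, 13707 and 13649 on Yaa, a fall of 42.4% (log2 fold change -0.80 ± 0.072 (SE), adjusted p = 7.60e-04). RpS12 had 5311, 5296 and 4938 on -M and 7606, 8511 and 8179 on Yaa (log2 fold change -0.64 ± 0.066 (SE), adjusted p = 0.00132). RpS20 had 6601, 6372 and 6410.4 on -M and 9341, 9577 and 9718 on Yaa (log2 fold change -0.56 ± 0.051 (SE), adjusted p = 7.50e-04). The libraries of the 2 diets were apart in each of these 3 genes.

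Among the named large-subunit genes, RpL32 had 8084, 7551 and 8191 normalized counts in mutants on -M and 9921, 10515 and 10369 on Yaa (log2 fold change -0.37 ± 0.059 (SE), adjusted p = 0.00911). RpLP1 and RpLP2 of the stalk fell by 0.42 and 0.33 on the log2 scale (adjusted p = 0.00689 and 0.0234), and RpL40 and RpS27A fell by 0.37 and 0.38 (adjusted p = 0.00775 and 0.0134). RpL5 had 38571, 35685 and 36222 on -M and 36704, 40141 and 37833 on Yaa, with an interval of -0.21 to 0.11, and RpL3 had 28716, 26470.0 and 26571 on -M and 26870.1, 31059.9 and 26944 on Yaa, with an interval of -0.24 to 0.14. For these the diets overlapped. The count of calls was 14 without Gcn2 -M replicate 2 or Gcn2 -M replicate 3, 21 without Gcn2 Yaa replicate 3 and 26 without Gcn2 -M replicate 1, and 45 without both ovary-rich libraries (Gcn2 -M replicate 2 and Gcn2 Yaa replicate 2), all of which were among the 51. The fat body and yolk genes summed to 1709116 to 1921182 in Gcn2 -M and 516650.1 to 519951 in Gcn2 Yaa libraries, and the digestive enzymes to 179335 to 200939.9 in Gcn2 -M and 101523 to 130721 in Gcn2 Yaa libraries, and their part was not tested.

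The number of members lowered when all amino acids were withdrawn from Gcn2 mutants depended on the scaling. 11 members fell, RpL22, RpL24-like, RpL27A, RpL38, RpL41, RpS12, RpS15Ab, RpS2, RpS20, RpS24 and sta, and 0 rose, against 3.54% lower among all genes. With libraries rescaled to the same total, 82 members were called lower and the median member was at -0.45 on the log2 scale. The median of all genes was lowered along with it, as given above, and the share of all genes called is not given here. As deposited, the median member had a log2 fold change of -0.13, a change of -8.74%, and the libraries were apart for 44 members, as for 18.4% of all genes. RpL24-like was again the lowest called, with 1646, 1669.7 and 1595 normalized counts on -All and 3251, 2682 and 2927 on Yaa (log2 fold change -0.85 ± 0.086 (SE), adjusted p = 7.23e-04). RpL41 had 8599, 9019 and 7592 on -All and 11829, 13707 and 13649 on Yaa (log2 fold change -0.64 ± 0.095 (SE), adjusted p = 0.00482). RpS7 was at the other end, with 18836, 19522 and 22314 on -All and 16933, 19999.8 and 17882 on Yaa, which overlap (95% interval -0.081 to 0.37). The count was 2 without Gcn2 -All replicate 3, 5 without Gcn2 -All replicate 1 or Gcn2 Yaa replicate 3, 6 without Gcn2 -All replicate 2 and 7 without Gcn2 Yaa replicate 1. The fat body and yolk genes summed to 3011779.8 to 3838308 in Gcn2 -All and 516650.1 to 519951 in Gcn2 Yaa libraries, and the digestive enzymes to 211181 to 230695 in Gcn2 -All and 101523 to 130721 in Gcn2 Yaa libraries, and their part was not tested.

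Within a genotype the 3 diets were each set against one and the same trio of Yaa libraries, so calls they have in common are not independent. RpL22 was called lower in all 6 comparisons, and RpL37A, RpL38, RpS12 and RpS20 in 5. Another 12 members were called lower in 4 comparisons, 35 in 3, 14 in 2 and 16 in 1, and for all 16 of the last that one was wDah -R. RpL34a, RpL7-like and RpS5b were called lower in none. The 61 members lower on wDah -All, the 51 lower on Gcn2 -M and the 14 lower on Gcn2 -R were each among the 82 lower on wDah -R, and so were 6 of the 7 that rose on Gcn2 -R. Since those 82 are nearly all of the 85 members, this inclusion, and that of the 16 above, was almost fixed in advance.

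The difference between the genotypes was then tested itself, as the change on a diet in Gcn2 mutants minus the change in wDah flies. For -R, 33 members had a positive and 3 a negative difference, against 15.9% and 5.63% of all genes, and the median member was at 0.29 on the log2 scale. RpS27 had the highest (difference 1.24 ± 0.092 (SE), adjusted p = 7.03e-06), followed by RpS3A (difference 0.91 ± 0.10 (SE), adjusted p = 1.04e-04) and RpL23 (difference 0.88 ± 0.13 (SE), adjusted p = 7.81e-04). All 3 stalk genes were among the 33, with 0.86 for RpLP1, 0.84 for RpLP2 and 0.60 for RpLP0 (adjusted p = 1.10e-04, 7.17e-04 and 0.0086). So were RpL5 and RpL11 of the 5S particle, RpL12 at the foot of the stalk, and RpS2, RpS3, RpS15, RpS16, RpS19a and RpS21 of the small subunit. The 3 with a negative difference were RpL22 (-0.38, adjusted p = 0.0125), RpS14a (-0.33, adjusted p = 0.0195) and RpS14b (-0.42, adjusted p = 0.0169), and they did not pass once libraries were rescaled to the same total, while the 33 did. Without Gcn2 -R replicate 1, 36 members had a positive and 6 a negative difference.

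For -M the difference had the opposite sign. 27 members had a negative and 0 a positive difference, against 2.71% of all genes called lower, with a median member of -0.23. RpL41 (difference -0.72 ± 0.10 (SE), adjusted p = 8.33e-04) and RpL24-like (difference -0.61 ± 0.10 (SE), adjusted p = 0.00298) were the lowest called, and RpS2, RpS12, sta, RpL10, RpL12, RpL40 and RpS27A were among the others. Without the ovary-rich libraries 16 of the 27 were called, and the count was 13 without wDah Yaa replicate 3, 14 without wDah -M replicate 1, 15 without Gcn2 -M replicate 2 or wDah Yaa replicate 1 and 17 without wDah Yaa replicate 2. For -All, 0 members were called by limma in either direction, where 0.491% and 0.391% of all genes were called lower and higher. At an unadjusted p under 0.05, 0 members were below and 5 above 0, namely RpL37A, RpL10Ab, RpL9, RpL28 and RpL5 with 0.16 to 0.21 on the log2 scale. The share of all genes at that threshold is not given here. The median member was at 0.068, and the median 95% interval, which is not adjusted, reached 0.175 to either side. Since the differences of 0.16 to 0.21 were not called either, differences of that size could be missed.

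**Figure D4:**
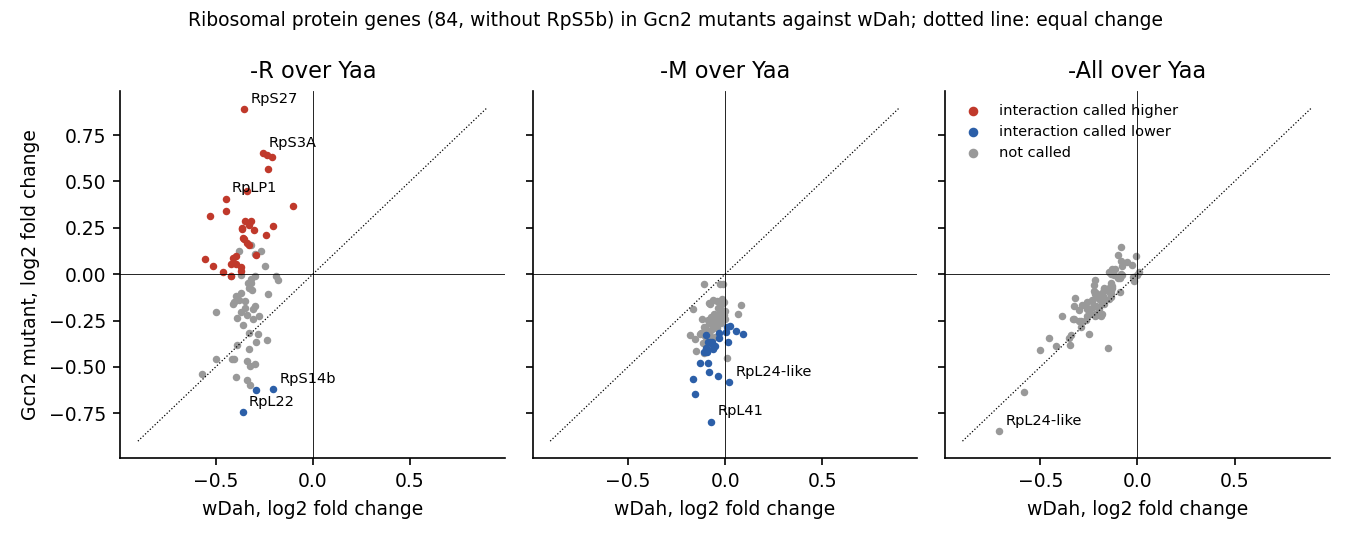
Log2 fold change of 84 ribosomal protein genes (without RpS5b), diet over Yaa, in Gcn2 mutants on the vertical axis and wDah flies on the horizontal axis, for -R, -M and -All. Coloured points passed the test of the difference between genotypes, and the dotted line marks equal change. On -R the points spread vertically between -0.74 and 0.89, on -M 83 of the 84 lie below the line, and on -All they follow it.

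The order of the members was most alike in the 2 genotypes on -All. Gcn2 and wDah comparisons share no library, and over 84 members without RpS5b their log2 fold changes correlated at Pearson r = 0.88 and Spearman rho = 0.86 on -All, at 0.30 and 0.39 on -M, and at 0.15 and 0.08 on -R. The change on Gcn2 -M correlated with that on wDah -R at 0.69 and 0.64. Other pairs of unlike diets were not compared between the genotypes, so this likeness cannot be called particular to that pair. These describe genes, which are not independent replicates, and share normalization over one table. RpS12, for example, fell by 0.64 in Gcn2 -M and by 0.57 in wDah -R on the log2 scale.

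On Yaa itself the mutants had slightly less of most members, though the test called none. The median log2 fold change of Gcn2 over wDah was -0.10, a change of -6.51%, and 76 of 85 members were below 0. With limma, 0 were called lower and 0 higher, where 1.31% and 1.38% of all genes were. At an unadjusted p under 0.05, 24 members were below 0 and none above, and the share of all genes at that threshold is not given here. The libraries were apart for 39 members, as for 14.9% of all genes. Without Gcn2 Yaa replicate 2, the ovary-rich one, 24 members were called lower and 1 higher. The share of all genes called without that library is not given, so these counts cannot be set against genes at large. RpL37A had the lowest fold change, with 8078, 8832 and 8798 normalized counts in mutants and 10666, 10349 and 9906 in wDah flies (log2 fold change -0.27 ± 0.059 (SE), adjusted p = 0.0787), followed by RpL5 with 36704, 40141 and 37833 in mutants and 46351, 46112 and 44511 in wDah flies (log2 fold change -0.26 ± 0.058 (SE), adjusted p = 0.0826). Neither overlapped between the genotypes.

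With methionine withdrawn, nearly the whole set was lower in the mutants. 79 members were lower and 0 higher, against 10.9% lower among all genes, and the libraries were apart for 84 members, as for 20.2% of all genes. The median member had -0.33 on the log2 scale, a change of -20.3%. RpL41 had 7463, 7570.3 and 7492 normalized counts in mutants on -M and 13423, 11995 and 12193 in wDah flies on -M (log2 fold change -0.74 ± 0.052 (SE), adjusted p = 6.02e-05). RpS2 had 12745, 12129 and 11777 in mutants and 20146, 18099.8 and 18981 in wDah flies (log2 fold change -0.64 ± 0.057 (SE), adjusted p = 1.55e-04). Fat body and yolk genes summed to 1709116 to 1921182 in Gcn2 -M and 595535 to 655939.9 in wDah -M libraries, and flight muscle genes to 203458 to 224416 in Gcn2 -M and 263229 to 264191 in wDah -M libraries, without overlap in either, and their part was not tested.

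With arginine withdrawn, the mutants had more of some members and less of a few. 28 members were higher and 6 lower, against 27.7% and 18.2% of all genes, so the share higher was near that of all genes and the share lower was below it. RpS27 had 15673, 14230.3 and 14359 normalized counts in mutants and 6574, 7153 and 6518 in wDah flies (log2 fold change 1.13 ± 0.077 (SE), adjusted p = 1.16e-04), and RpLP2 had 25331, 20833 and 20246 in mutants and 11348, 11875 and 12215 in wDah flies (log2 fold change 0.90 ± 0.10 (SE), adjusted p = 8.88e-04). The 6 lower ones were RpL22, RpL37A, RpL40, RpS14a, RpS14b and RpS27A, among them both ubiquitin fusions. RpL22 had 8633, 7927 and 7355 in mutants and 10770.0, 11295 and 11177 in wDah flies (log2 fold change -0.48 ± 0.081 (SE), adjusted p = 0.00432). The count was 16 without wDah -R replicate 1 or wDah -R replicate 3, 17 without wDah -R replicate 2 and 55 without Gcn2 -R replicate 1, and with the last of these 36 members were higher and 19 lower. The share of all genes called with these libraries left out is not given here. Digestive enzymes summed to 46848 to 68001 in Gcn2 -R and 197176 to 208936 in wDah -R libraries, neuron markers to 9107 to 23493 in Gcn2 -R and 32431 to 32752 in wDah -R, and photoreceptor markers to 241272 to 268914 in Gcn2 -R and 388028 to 414021 in wDah -R. None of these overlapped between the genotypes, and their part was not tested. On -All, limma called 0 members lower and 0 higher, where 0.514% and 0.56% of all genes were called. There 3 members, RpS5b, RpS15Ab and RpL6, were below 0 at an unadjusted p under 0.05 and 0 above, and the share of all genes at that threshold is not given here. The median member was at -0.033.

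The diets were also set against each other. In wDah flies, 74 members were lower on -R than on -M and 0 were higher, against 7.70% lower among all genes, with a median log2 fold change of -0.29. RpL41 had 8427, 9652 and 8834 normalized counts on -R and 13423, 11995 and 12193 on -M (log2 fold change -0.48 ± 0.064 (SE), adjusted p = 0.003), without overlap. Of -R against -All, 19 members were lower and 1 higher, against 6.94% and 3.71% of all genes, but only 1 and 2 with libraries rescaled to the same total, and 0 without the ovary-rich wDah -All replicates 1 and 3. The one higher was RpL24-like, with 1812, 2088 and 1995 on -R and 1538, 1556 and 1625 on -All (log2 fold change 0.32 ± 0.061 (SE), adjusted p = 0.0176). The count was 0 without wDah -R replicate 3, 1 without wDah -R replicate 1, 3 without wDah -All replicate 3, 7 without wDah -R replicate 2 and 10 without wDah -All replicate 1, so the calls of this comparison rest on single libraries.

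In Gcn2 mutants, 33 members were higher on -R than on -M and 3 lower, against 23.7% and 13.1% of all genes, with a median of 0.26. The 3 lower ones were RpL22, RpS14a and RpS14b. RpL41 had 15612, 13629 and 12393 normalized counts on -R and 7463, 7570.3 and 7492 on -M (log2 fold change 0.88 ± 0.10 (SE), adjusted p = 0.00102). The order of the 2 diets was therefore the reverse of that in wDah flies for this gene. The count was 20 without Gcn2 -M replicate 2 or Gcn2 -M replicate 3 and 22 without Gcn2 -M replicate 1, and without the ovary-rich Gcn2 -R replicate 1 it was 54, with 40 higher and 14 lower. The share of all genes called with these libraries left out is not given here. Of -R against -All, 16 members were higher and 9 lower, against 22.9% and 14.1% of all genes. With libraries rescaled to the same total, 38 were higher and 2 lower, and the share of all genes called then is not given. As deposited, RpS3A had 47757, 51596 and 46622 on -R and 27799.9, 29377 and 29327 on -All (log2 fold change 0.75 ± 0.086 (SE), adjusted p = 8.99e-04). Here the count was 14 without Gcn2 -All replicate 1 or Gcn2 -All replicate 3, 15 without Gcn2 -R replicate 2, 16 without Gcn2 -All replicate 2 and 44 without Gcn2 -R replicate 1, the last with 20 higher and 24 lower.

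Copies of one ribosomal protein did not always move together. RpL34a and RpL34b are copies of one large-subunit gene, and RpL34a took 33.5% ± 0.732 of the FPKM of both in Gcn2 -R and 21.0% ± 0.575 in Gcn2 Yaa libraries (SD, n = 3 each). In wDah flies it took 24.5% ± 0.961 on -R and 21.0% ± 0.760 on Yaa. The shares in Gcn2 -R lay above those in every other library. RpL34a (chr3R:26058420-26059267, minus strand) had 2795, 2345 and 2217 normalized counts in Gcn2 -R and 1768, 2050.2 and 1869 in Gcn2 Yaa, and 1736, 1756 and 1719 in wDah -R and 1908, 1826 and 1861 in wDah Yaa. RpL34b (chr3R:9400237-9401226, minus strand) had 6704, 5383 and 4987 in Gcn2 -R and 7979, 8641 and 8236 in Gcn2 Yaa, and 6065, 6688 and 5958 in wDah -R and 8229, 8451 and 7896 in wDah Yaa. The difference between genotypes was 0.47 for RpL34a (adjusted p = 0.02) and -0.16 for RpL34b (adjusted p = 0.449).

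RpL24-like, set beside RpL24 by symbol, had a lower share of the FPKM of both on -All than on Yaa in both genotypes. It took 13.4% ± 1.04 of the FPKM of both in Gcn2 -All and 22.2% ± 2.60 in Gcn2 Yaa libraries, and 13.2% ± 0.360 in wDah -All and 18.8% ± 0.411 in wDah Yaa libraries. RpL7-like, whose yeast counterpart is likewise an assembly factor, took 5.54% ± 0.782 of the FPKM of itself and RpL7 in Gcn2 -R and 3.31% ± 0.503 in Gcn2 Yaa libraries. Its normalized counts were 1063, 1168 and 1095 in Gcn2 -R and 614, 911 and 655 in Gcn2 Yaa (log2 fold change 0.63 ± 0.16 (SE), adjusted p = 0.0398), and its exons overlap CG34164 on the same strand. RpS14b took 34.3% ± 1.29 of the FPKM of RpS14a and RpS14b in Gcn2 -R and 34.3% ± 0.112 in Gcn2 Yaa libraries, and 37.5% ± 0.677 in Gcn2 -All. RpS15Ab took 2.59% ± 0.216 of the FPKM of RpS15Aa and RpS15Ab in Gcn2 -R and 3.20% ± 0.151 in Gcn2 Yaa libraries. In both of the last families the copies are nearly identical in sequence, and the shares depend on how reads were divided.

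RpS5b is the copy of RpS5a that flies use in the female germline, and its values went with the ovary markers. It had 1165, 9.81 and 6.18 normalized counts in Gcn2 -R, 13.5, 518 and 10.6 in Gcn2 -M, 132, 19.2 and 32.9 in Gcn2 -All and 18.9, 1599 and 27.3 in Gcn2 Yaa libraries. In wDah flies it had 29.3, 29.1 and 6.29 on -R, 483, 3.02 and 3.99 on -M, 674, 49.4 and 369 on -All and 40.6, 4.72 and 30.0 on Yaa. The 6 libraries with the highest counts were the 6 with high ovary markers. The call on wDah -All (log2 fold change 3.58 ± 1.06 (SE), adjusted p = 0.0333) was lost without wDah -All replicates 1 and 3, with 1.37 on the log2 scale. RpS5a had 13429, 13852 and 15127 on wDah -All and 16654, 16704 and 15872 on wDah Yaa (log2 fold change -0.22 ± 0.053 (SE), adjusted p = 0.016). RpS10b, RpS19a and RpS28b, whose other copies were not analysed here, fell on wDah -R by 0.32, 0.37 and 0.24 on the log2 scale.

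**Figure D5:**
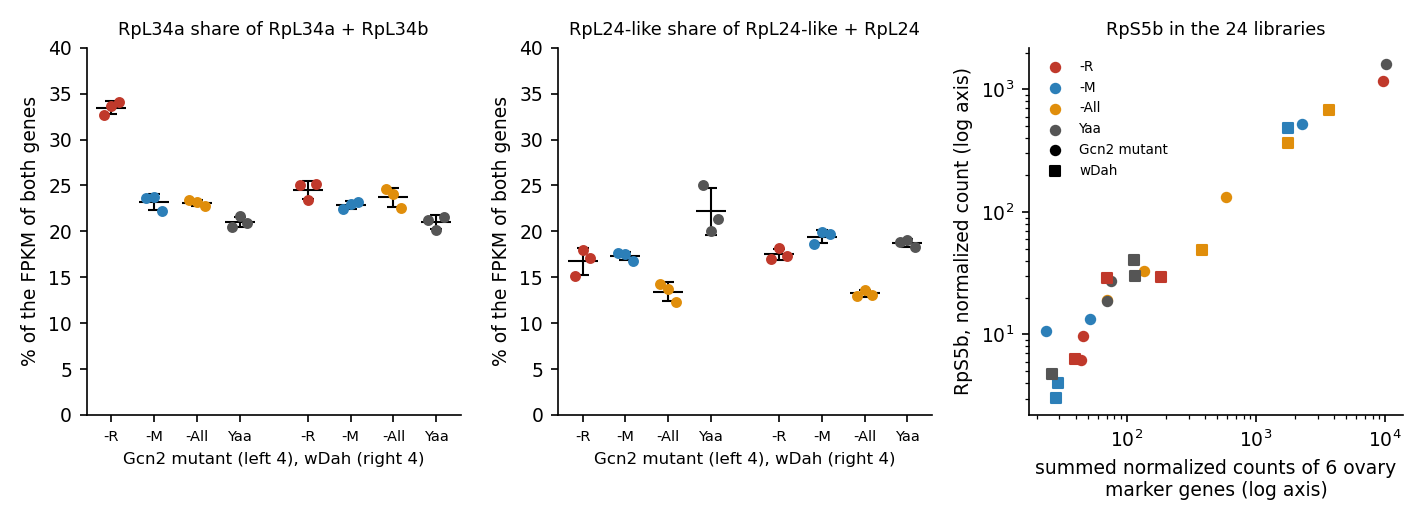
Share of RpL34a in the FPKM of RpL34a and RpL34b (percent, left) and of RpL24-like in that of RpL24-like and RpL24 (middle). Points are libraries, and dashes with bars are means with SDs (n = 3). The right panel shows RpS5b against the sum of 6 ovary marker genes in the 24 libraries on log axes. RpL34a reaches 32.7% to 34.1% in Gcn2 -R, RpL24-like is lowest on -All in both genotypes, and the 6 libraries with the highest ovary sums have the 6 highest RpS5b counts.

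By the BDGP6.54 annotation, which is newer than the release behind the files, 18 members lie on 2L, 18 on 2R, 14 on 3L, 19 on 3R, 1 on chromosome 4 and 15 on X. The median change per arm on wDah -R was between -0.35 and -0.32 for the 5 large arms. On Gcn2 -R it was 0.018 on 2L, 0.085 on 2R, -0.023 on 3L, -0.12 on 3R and -0.20 on X. 29 members host 76 snoRNA genes in their introns, and 30 have exons that overlap another gene, 24 of them on the other strand. Coding length went with the change on some diets, with a Spearman rho of 0.47 for wDah -M, 0.44 for Gcn2 -M and 0.41 for Gcn2 -All over 84 members, where a positive rho means that shorter members had the lower fold changes. On Gcn2 -R the rho was 0.03 for coding length and 0.31 for mean FPKM, the largest for any of 8 properties of the genes. These are descriptions across genes of one set of libraries.

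Other parts of the translation machinery were counted in the same way. Of 73 mitochondrial ribosomal protein genes, 2 fell on wDah -R (median -0.038), 18 rose on wDah -M (median 0.16), where 15.3% of all genes did, and 20 rose on Gcn2 -R (median 0.31), where 17.3% did. Of 34 listed ribosome biogenesis genes, which act in the nucleolus to build the subunits, 9 fell on wDah -R, 14 rose on wDah -M and 24 rose on Gcn2 -R, where their median log2 fold change was 1.10. Their difference between genotypes on -R was positive for 29 of 34, with a median of 1.34, against 0.29 for the ribosomal protein genes. Of 33 initiation factor genes, 2 fell and 4 rose on wDah -R, and of 9 elongation factor genes, 3 fell and 1 rose. Of all genes, 8.98% fell and 13.8% rose on that diet.

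Among 16 listed regulators, Myc, which drives transcription of ribosomal protein and biogenesis genes in flies, had 1818, 1690.3 and 1794 normalized counts on wDah -R and 2349, 2102 and 2001 on wDah Yaa (log2 fold change -0.28 ± 0.061 (SE), adjusted p = 0.0126). In Gcn2 mutants it had 1964, 3037 and 3302 on -R and 2489, 3506 and 2038 on Yaa, which overlap. Thor, the 4E-BP that blocks initiation, rose on wDah -M (log2 fold change 0.66 ± 0.058 (SE), adjusted p = 1.62e-04) and was at -0.38 on Gcn2 -M (adjusted p = 0.239), and the difference between genotypes passed the test (difference -1.04 ± 0.20 (SE), adjusted p = 0.00851). M1BP, a factor that binds promoters of ribosomal protein genes in flies, rose on Gcn2 -R (log2 fold change 0.45 ± 0.12 (SE), adjusted p = 0.0376), with a difference between genotypes of 0.57. Xrp1, which is induced in flies when ribosomal protein genes are mutated, and its partner Irbp18 also rose on Gcn2 -R, with log2 fold changes of 1.06 and 0.96. Xrp1 rose in wDah flies on all 3 diets as well, by 0.37 for -R, 0.52 for -M and 0.20 for -All. The test of the difference between genotypes on -R called Irbp18 (difference 0.98 ± 0.16 (SE), adjusted p = 0.0012) and did not call Xrp1 (0.68, adjusted p = 0.122).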

How the data were processed

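Poly(A) RNA of heads and thoraces was sequenced as single-end reads. Per the study's methods, the authors quantified transcripts with kallisto 0.46.2 on BDGP6.32, summed them to genes and normalized them with DESeq2 1.24.0 in R 3.6.3. The authors deposited normalized counts (a signal, reads divided by a size factor) in 1 table of 24 libraries and in 6 tables of 6 libraries that were normalized separately, together with FPKM values and with columns of their own comparisons (fold changes and p-values), which were not used. Original counts could not be recovered from the normalized counts, so no count model was run, and the precision at a given depth rests on the spread between libraries alone.

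Here log2(normalized count + 1) was tested with limma 3.58.1 (trended empirical Bayes, two-sided) in R 4.3.3, on features with a mean of at least 10 over the libraries compared, in 17 comparisons. p-values were adjusted by Benjamini-Hochberg over all features tested. FPKM values served only to compare levels between genes. The procedure was tested on simulated data at the levels of the wDah -R and Yaa libraries. For highly expressed genes their spread was milder than that of the Gcn2 -R libraries, and none was ovary-rich, so performance there was not tested. The members, gene lists, named genes and tests were chosen with earlier results of these data known. Named genes were the 3 lowest and 3 highest members of each comparison with a mean of at least 100, copies by symbol, and members with a textbook role; RpS2, RpS20, RpS3, RpL3, RpL5, RpL11, RpL15, RpS30 and the members listed by call were partly added after their values were seen. The alternatives were a pseudocount of 10, no filter, rescaling to the same total, 1 fit of all libraries, separately normalized tables, a replicate block, leaving out each library, and leaving out ovary-rich libraries, the last partly chosen after seeing the data. The labels call the libraries biological replicates and name no batch. Same-numbered libraries deviated together in 1 comparison, Gcn2 -M with Yaa (r = 0.27, 0.48 and 0.23), where the blocked count is given. Gene positions and overlaps come from the BDGP6.54 annotation.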

Additional observations from a re-analysis of the deposited data

Results flagged for a closer look

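The test of the difference between genotypes on -R called 33 members with a positive and 3 with a negative difference, that is, Gcn2 mutants and wDah flies responded differently to arginine withdrawal. The largest differences on the log2 scale were 1.24 for RpS27, 0.91 for RpS3A and 0.88 for RpL23, whose 3 Gcn2 -R libraries all lay above Gcn2 Yaa while the 3 wDah -R libraries all lay below wDah Yaa. RpS14b, at -0.42, and RpL22, at -0.38, differed the other way, since both fell in each genotype and further in the mutants. None of the 3 negative differences passed once libraries were rescaled to the same total, and the exons of RpL23 overlap inaD on the other strand. On -M, 27 members had a negative difference, led by RpL41 at -0.72 and RpL24-like at -0.61. RpL24-like had 2063, 1929 and 1904 normalized counts in Gcn2 -M and 3251, 2682 and 2927 in Gcn2 Yaa libraries, and 2714, 2538 and 2598 in wDah -M and 2595, 2678 and 2457 in wDah Yaa libraries. Its exons overlap those of Dtd on the other strand.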

How the results depend on the processing

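Groups of 3 libraries limit what could be called, the scaling of -All libraries moves every gene, and reads of near-identical copies and overlapping genes cannot be separated. A pseudocount of 10 and no filter moved no count of calls by over 1.5 times. With libraries rescaled to the same total, the calls were 55 on wDah -M, 82 on Gcn2 -All, 3 for wDah -R against -All and 40 for Gcn2 -R against -All. This rescaling also lowered the median of all genes on each diet against Yaa, and the share of all genes called is not given here. After it RpL19 on wDah -All was at -0.28, and RpS14b and RpL5 on Gcn2 -All at -0.22 each, so their directions turned. In 1 fit of all libraries the calls were 0 on wDah -M, 48 on Gcn2 -R, 23 on Gcn2 -All, 4 for Gcn2 against wDah on Yaa, 59 on -R, 7 for wDah -R against -All, 64 for Gcn2 -R against -M and 52 for Gcn2 -R against -All. On wDah -M, 10 members were called when normalized separately. With the replicate block the calls were 2 on wDah -M, 4 on Gcn2 -R, 32 on Gcn2 -M, 5 on Gcn2 -All, 20 for Gcn2 against wDah on -R, 1 for them on -All and 8 for wDah -R against -All, and apart from Gcn2 -M the libraries share only a number. Without the ovary-rich libraries they were 16 for the difference on -M and 0 for wDah -R against -All, and without Gcn2 -R replicate 1 and Gcn2 Yaa replicate 2 they were 48 on Gcn2 -R. Without the ovary-rich libraries the median member of Gcn2 against wDah on -All was at 0.021. When single libraries were left out, the calls ranged from 79 to 82 on wDah -R, 0 to 14 on wDah -M, 40 to 61 on wDah -All, 6 to 30 on Gcn2 -R, 14 to 61 on Gcn2 -M and 2 to 13 on Gcn2 -All. They ranged from 27 to 44 for the difference between genotypes on -R and 13 to 31 on -M. For Gcn2 against wDah they ranged from 0 to 25 on Yaa, 16 to 55 on -R and 70 to 77 on -M, and between diets from 53 to 74 and 0 to 25 in wDah flies (-R against -M and -All) and from 20 to 54 and 14 to 44 in Gcn2 mutants. The median member ranged from -0.11 without Gcn2 -R replicate 1 to 0.058 without Gcn2 -R replicate 3 on Gcn2 -R, and from -0.0050 to 0.21 without the same libraries for Gcn2 -R against -All. No share of all genes called is given for these alternatives, and the cause of these moves was not tested. No called member changed direction in any alternative.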
